A study of Mus musculus with 8 samples.

Results

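The 31 genes described here encode the enzymes of fatty acid oxidation, the ketone body enzyme Bdh1, the regulator Ppara and 3 genes that respond to it. They were taken by name from the 40838 genes in the deposited count table. The names cover the transfer of fatty acids to carnitine, the mitochondrial and peroxisomal oxidation spirals, the electron transfer from them, and ketone body formation. All 31 were present and all 31 passed the filter on low counts, among 17438 genes tested. No measured value of the group comparison entered the rule, but the genes were chosen with earlier results of these data known.

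Liver RNA was sequenced in 4 libraries of the Lpcat3 group and 4 of the eGFP group. Lpcat3 mice had received an adeno-associated virus (AAV) carrying Lpcat3, and eGFP mice the same kind of virus with enhanced green fluorescent protein, both under the TBG promoter, which is active in hepatocytes. All were C57BL/6 mice on a diet that causes nonalcoholic steatohepatitis (NASH), given for 7 weeks before the virus and 9 weeks after it, 16 weeks in all. No liver on an ordinary diet or without virus is among the libraries used here. Lpcat3 is the lysophospholipid acyltransferase that places polyunsaturated chains in membrane phospholipids, and the series title asks how this remodelling bears on mitochondria in NASH. The labels do not say that each library is a separate animal, nor the animals' age or sex, so p-values measure the spread between these libraries only.

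In hepatocytes, long-chain fatty acids are activated to acyl-CoA, exchanged for carnitine at the outer mitochondrial membrane and oxidised in the matrix by repeated rounds of dehydrogenation, hydration, a further dehydrogenation and thiolysis. Peroxisomes run a parallel set of enzymes for very long and branched chains. The acetyl-CoA formed feeds ketone body synthesis, a liver function that increases in fasting, and the nuclear receptor PPARA activates the transcription of many of these enzymes when fatty acids are abundant.

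Library totals ran from 22433625 to 25651874 counts. Lpcat3 itself was at 274, 401, 465 and 311 CPM (counts scaled to library size, with TMM factors) in Lpcat3 livers and at 158, 148, 133 and 173 CPM in eGFP livers, so the groups did not overlap, in the direction of the labels (edgeR log2 fold change 1.25, SE 0.17; adjusted p = 0.164). On the leading principal axis of all genes (40.9% of variance) Lpcat3 replicate 3 lay at 51.0 and eGFP replicate 3 at -46.1, farther out than the other 6 libraries. The titles also carry code numbers whose meaning is not given, and the eGFP group has 3 libraries of codes 1290 and 1317 and 1 of code 1345, while the Lpcat3 group has 1 of code 1290, 2 of 1344 and 1 of 1345. Hepatocyte markers were abundant in each library (summed level 90512 to 126790 CPM in Lpcat3 livers and 75636 to 110400 CPM in eGFP livers), and Alb alone averaged 41583 CPM in Lpcat3 livers and 38642 CPM in eGFP livers. Of 4 muscle markers 0 passed the filter on low counts, and of 4 adipocyte markers 1 did, with a summed level of 4.17 to 51.1 CPM in Lpcat3 livers and 1.81 to 21.8 CPM in eGFP livers.

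The fatty acid oxidation genes were at slightly higher levels in Lpcat3 livers, but none passed the test. The log2 fold change was above 0 for 29 of the 31 genes and below 0 for Crot and Pdk4, with a median of 0.09, against 48.5% above 0 and a median of -0.0065 over all 17438 genes. The values ran from -0.54 (Pdk4) to 0.37 (Eci2). edgeR called 0 of the 31 higher and 0 lower at an adjusted p of 0.05, where 0.00573% of all genes were called higher and 0% lower. DESeq2 and limma-voom also called 0 of the 31. On simulated data the edgeR fit called 0 of 150 genes changed 1.2-fold and 25.3% of 150 changed 1.5-fold. The largest rise among the 31 was 1.29-fold (Eci2), so the lack of calls does not show that levels were equal. At an unadjusted p under 0.05 there was 1 gene with a higher level (Eci2) and 0 with a lower one, against backgrounds of 3.3% and 5.18% of all genes. The groups did not overlap for 2 of the 31 genes (Eci1 and Eci2), and for 4.16% of all genes. The shared sign depended on scaling. With library totals in place of TMM the count above 0 was 11 of 31 and the median -0.02, while the median of all genes moved by -0.12. Relative to the median gene, 29 of 31 were then higher and the median was 0.10 above it. In bulk liver, fewer cells of a type and less RNA per cell cannot be told apart.

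**Figure D1:**
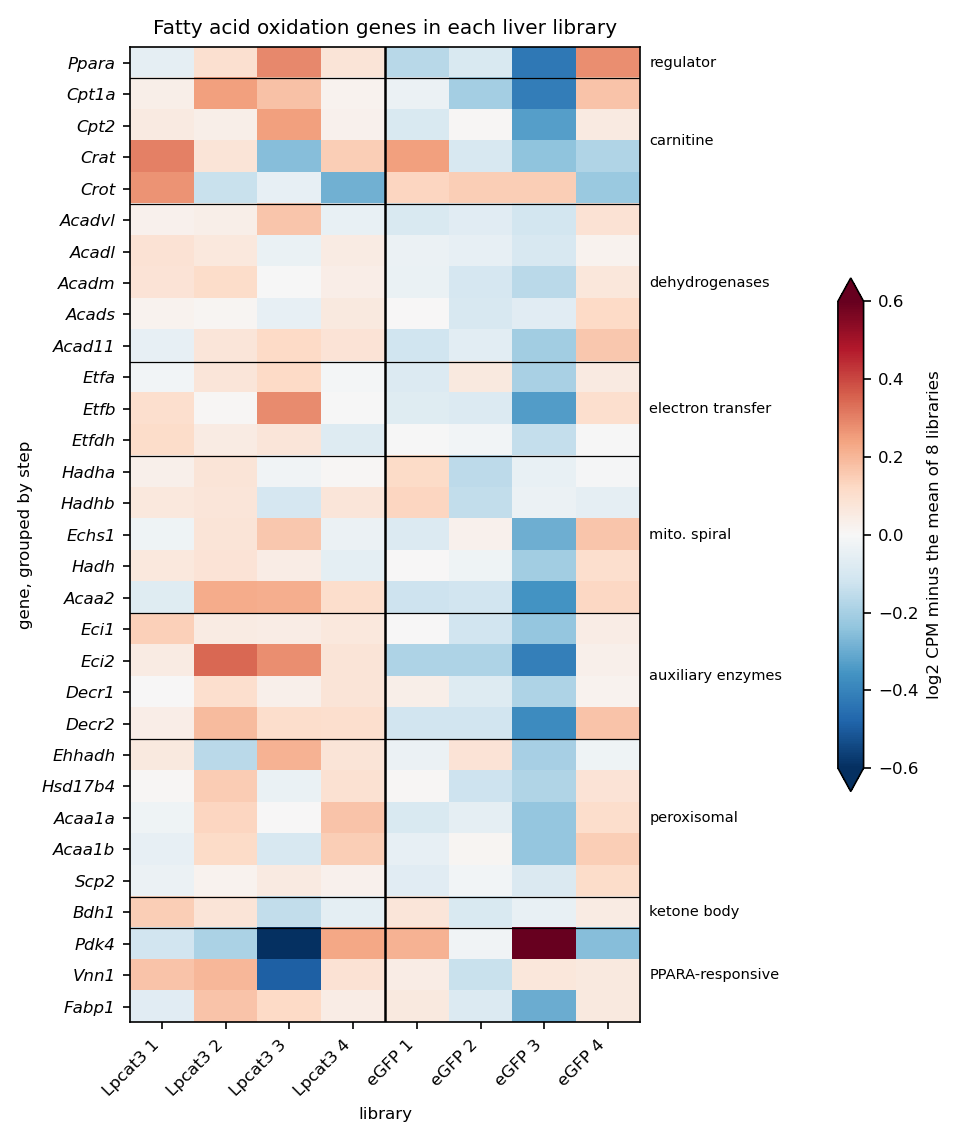
Level of each of the 31 genes (rows, grouped by step) in each library (columns), as log2 CPM minus the mean of the 8 libraries; red is above and blue below that mean, and colours end at 0.6. The column of eGFP replicate 3 is blue for nearly all genes, and holds the lowest value of 23 of the 31, while Pdk4 shows the opposite in that library.

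Ppara, the receptor that controls much of the pathway, was at 666, 738, 842 and 729 CPM in Lpcat3 livers, against 617, 649, 514 and 838 CPM in eGFP livers. The groups overlapped, since eGFP replicate 4 lay above 3 of the 4 Lpcat3 libraries. The log2 fold change was 0.19 (SE 0.15, 95% interval -0.15 to 0.52; edgeR adjusted p = 0.697; exact permutation p = 0.257). Without eGFP replicate 3 it was 0.08. Within codes 1290 and 1317 the log2 difference was 0.17, and within 1344 and 1345 it was -0.13.

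The carnitine acyltransferases move acyl groups between coenzyme A and carnitine. Cpt1a, the malonyl-CoA-sensitive enzyme of the outer membrane that commits fatty acids to oxidation, was at 742, 859, 820 and 736 CPM in Lpcat3 livers, against 708, 629, 544 and 817 CPM in eGFP livers. All Lpcat3 libraries lay above eGFP replicates 1 to 3, and eGFP replicate 4 lay among them. The log2 fold change was 0.23 (SE 0.13, 95% interval -0.06 to 0.52; edgeR adjusted p = 0.638; exact permutation p = 0.114). It was 0.13 without eGFP replicate 3, and within the codes it was 0.25 for 1290 and 1317 but -0.03 for 1344 and 1345. Cpt2, which returns the acyl group to coenzyme A in the matrix, averaged 134 ± 10.05 CPM in Lpcat3 livers and 118 ± 13.5 CPM in eGFP livers (SD, n = 4 each, as below). Crat, the carnitine acetyltransferase, averaged 81.1 ± 12.7 CPM in Lpcat3 livers and 73.8 ± 11.8 CPM in eGFP livers. Crot, the peroxisomal enzyme that hands shortened chains to carnitine, averaged 443 ± 75.1 CPM in Lpcat3 livers and 473 ± 56.1 CPM in eGFP livers, with a log2 fold change of -0.09 (SE 0.13). Within codes 1290 and 1317 the log2 difference of Crot was 0.13, and within 1344 and 1345 it was 0.07. Within code 1290 alone it was 0.13, and within code 1345 alone -0.07. Its level followed another order over libraries than that of Cpt1a, with the highest value, 548 CPM, in Lpcat3 replicate 1 and the lowest, 372 CPM, in Lpcat3 replicate 4.

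**Figure D2:**
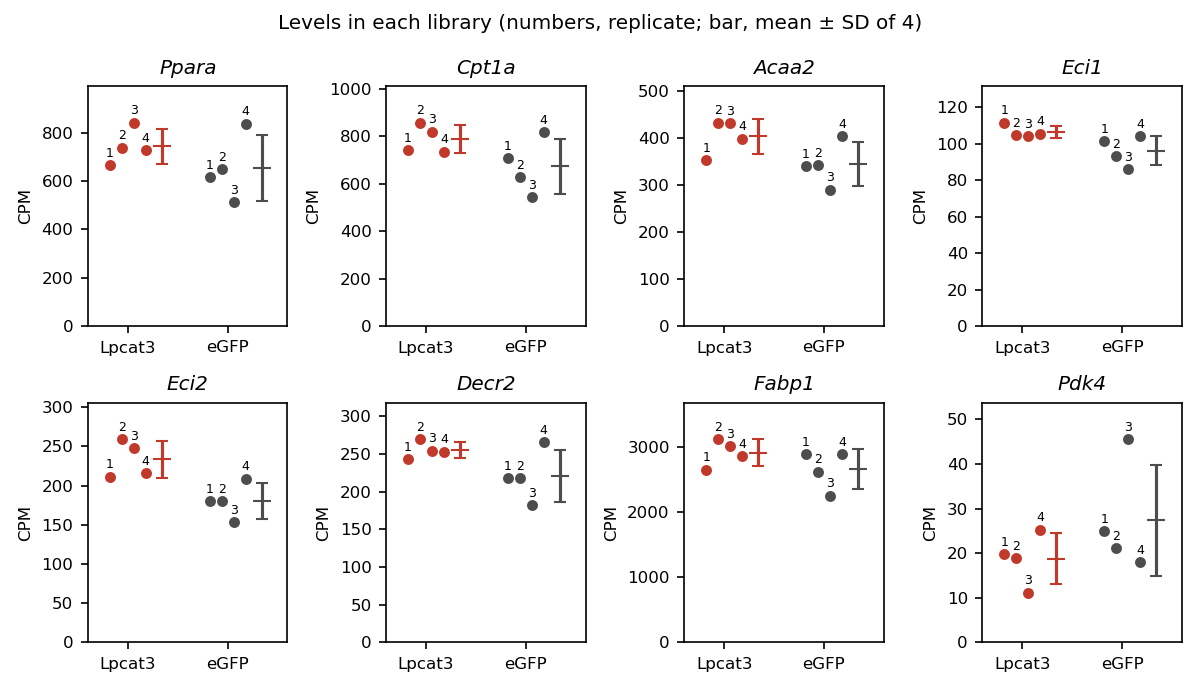
CPM of 8 genes in each library, Lpcat3 left and eGFP right, on axes that start at 0; points are libraries numbered by replicate, and bars give the mean ± SD of 4. The groups are apart only for Eci1 and Eci2, and in 7 of the 8 panels eGFP replicate 3 is the lowest point, while Pdk4 has its highest value there.

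The acyl-CoA dehydrogenases open each round of mitochondrial oxidation and are graded by chain length. All 5 had log2 fold changes above 0, from 0.02 (Acads, for short chains) to 0.11 (Acadm, for medium chains). Acadm was at 274, 278, 258 and 266 CPM in Lpcat3 livers, against 251, 241, 231 and 271 CPM in eGFP livers. The groups overlapped through eGFP replicate 4 alone (log2 fold change 0.11, SE 0.07, 95% interval -0.05 to 0.28; edgeR adjusted p = 0.662; exact permutation p = 0.0857). Acadvl, for very long chains, averaged 140 ± 8.74 CPM in Lpcat3 livers and 132 ± 8.4 CPM in eGFP livers. Acadl, for long chains, averaged 198 ± 7.5 CPM in Lpcat3 livers and 187 ± 6.34 CPM in eGFP livers, and Acads 97.5 ± 3.03 CPM in Lpcat3 livers and 96.2 ± 6.52 CPM in eGFP livers. Acad11, a further member of the family, averaged 538 ± 26.5 CPM in Lpcat3 livers and 499 ± 56 CPM in eGFP livers.

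Electrons from these dehydrogenases pass to the flavoprotein formed by Etfa and Etfb and then, through Etfdh, to ubiquinone. Etfb was at 35.3, 33.1, 40.1 and 32.8 CPM in Lpcat3 livers, against 31.3, 31.1, 26.1 and 35.3 CPM in eGFP livers. The highest eGFP library, replicate 4, was level with Lpcat3 replicate 1, and the lowest was eGFP replicate 3 (log2 fold change 0.19, SE 0.10, 95% interval -0.04 to 0.42; edgeR adjusted p = 0.626; exact permutation p = 0.143). Etfa averaged 303 ± 13.9 CPM in Lpcat3 livers and 288 ± 23.9 CPM in eGFP livers. Etfdh averaged 227 ± 12.6 CPM in Lpcat3 livers and 215 ± 9.87 CPM in eGFP livers. The log2 fold changes of both were 0.08, with SEs of 0.08 (Etfa) and 0.07 (Etfdh). Reads of Etfb cannot be fully told apart, since 65.2% of the 101-base windows of its longest GENCODE transcript also occur in the transcript annotated as Gm45233.

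Hadha and Hadhb encode both subunits of the mitochondrial trifunctional protein, which carries out the remaining steps on long chains. The genes lie head to head, and in RefSeq (GRCm38.p6) 272 bases separate their start sites. This promoter is shown because both genes had their highest and their lowest level in the same libraries. The Hadhb window, chr5:30155003-30155302 on the plus strand, is printed with capitals on the 228 bases that also belong to the Hadha window (chr5:30154931-30155230, minus strand). The capitals hold 57.0% G and C.
Hadhb promoter: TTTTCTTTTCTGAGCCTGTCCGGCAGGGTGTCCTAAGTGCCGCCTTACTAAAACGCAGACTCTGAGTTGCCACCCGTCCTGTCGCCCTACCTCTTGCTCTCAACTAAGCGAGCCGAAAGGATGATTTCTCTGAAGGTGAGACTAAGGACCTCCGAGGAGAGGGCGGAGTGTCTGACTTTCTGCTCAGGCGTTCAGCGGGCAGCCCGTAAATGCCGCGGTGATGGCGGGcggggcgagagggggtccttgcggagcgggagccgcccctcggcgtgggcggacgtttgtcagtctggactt

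Hadha was at 338, 349, 326 and 332 CPM in Lpcat3 livers, against 358, 297, 320 and 329 CPM in eGFP livers, and Hadhb at 256, 257, 228 and 257 CPM in Lpcat3 livers, against 267, 221, 239 and 235 CPM in eGFP livers. For both genes the highest of the 8 libraries was eGFP replicate 1 and the lowest eGFP replicate 2, so the eGFP spread enclosed the Lpcat3 values. The ratio of Hadha to Hadhb CPM averaged 1.35 ± 0.0586 in Lpcat3 livers and 1.36 ± 0.029 in eGFP livers (log2 difference -0.0084; exact permutation p = 0.8286, and 0.8286 adjusted over the 2 ratios computed). Their log2 fold changes were 0.04 (SE 0.08) and 0.05 (SE 0.08). Head-to-head start sites with overlapping windows occur for 10.9% of the 27025 genes with a promoter in the table, and for Etfdh as well among the genes described here.

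Acaa2, the matrix thiolase that releases acetyl-CoA, had the largest log2 fold change of the matrix enzymes that follow the dehydrogenases. It was at 353, 434, 432 and 399 CPM in Lpcat3 livers, against 341, 343, 290 and 405 CPM in eGFP livers. All Lpcat3 libraries exceeded eGFP replicates 1 to 3, and eGFP replicate 4 exceeded 2 of them (log2 fold change 0.23, SE 0.11, 95% interval -0.02 to 0.49; edgeR adjusted p = 0.606; exact permutation p = 0.0857). Without eGFP replicate 3 the log2 fold change was 0.15. Echs1, the short-chain hydratase, averaged 124 ± 8.09 CPM in Lpcat3 livers and 117 ± 15.5 CPM in eGFP livers. Hadh, the short-chain hydroxyacyl-CoA dehydrogenase, averaged 386 ± 16.5 CPM in Lpcat3 livers and 370 ± 32.4 CPM in eGFP livers.

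The auxiliary enzymes, which rearrange the double bonds of unsaturated fatty acids so that oxidation can proceed, held the 2 genes without overlap. Eci2, an enoyl-CoA isomerase of peroxisomes and mitochondria, was at 211, 259, 248 and 215 CPM in Lpcat3 livers, against 180, 180, 154 and 209 CPM in eGFP livers. Every Lpcat3 library lay above every eGFP library, with Lpcat3 replicate 1 and eGFP replicate 4 the nearest to each other. Its mean was 29.3% higher, at 233 ± 23.7 CPM in Lpcat3 livers and 180 ± 22.5 CPM in eGFP livers (log2 fold change 0.37, SE 0.11, 95% interval 0.13 to 0.61). The unadjusted edgeR p was 0.00674, which ranked 190 among 17438 genes, and the adjusted p was 0.564, so Eci2 did not pass; the exact permutation p was 0.0286, the smallest the 70 relabellings allow. The log2 fold change stayed above 0 under each alternative tried, at 0.15 after adjustment for every code number and 0.45 without eGFP replicate 4, and its adjusted p ran from 0.19 (DESeq2) to 0.99997 (code division in edgeR). Within codes 1290 and 1317 the log2 difference was 0.31, and within 1344 and 1345 it was 0.20. Within code 1290 alone it was 0.23, and within code 1345 alone 0.05, each with 1 Lpcat3 library.

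Eci1, the mitochondrial isomerase, was at 112, 105, 104 and 106 CPM in Lpcat3 livers, against 101, 93.3, 86.2 and 104 CPM in eGFP livers. The groups touched without overlapping, at 104.3 CPM in Lpcat3 replicate 3 and 104.2 CPM in eGFP replicate 4 (log2 fold change 0.15, SE 0.07, 95% interval -0.02 to 0.31; edgeR adjusted p = 0.609; exact permutation p = 0.0286). Decr1, the mitochondrial dienoyl-CoA reductase, averaged 193 ± 5.81 CPM in Lpcat3 livers and 179 ± 12.5 CPM in eGFP livers. Decr2, its peroxisomal counterpart, averaged 255 ± 11.1 CPM in Lpcat3 livers and 221 ± 34.5 CPM in eGFP livers (log2 fold change 0.21, SE 0.11). The wide eGFP spread of Decr2 came from replicate 3 at 182 CPM and replicate 4 at 266 CPM.

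The peroxisomal spiral had log2 fold changes of 0.03 to 0.13, all above 0 and each with an interval that included 0. Acaa1a, a peroxisomal thiolase, was at 270, 300, 275 and 310 CPM in Lpcat3 livers, against 258, 265, 234 and 295 CPM in eGFP livers. The groups overlapped through eGFP replicate 4 (log2 fold change 0.13, SE 0.09, 95% interval -0.06 to 0.33; edgeR adjusted p = 0.666; exact permutation p = 0.143). Its close copy Acaa1b averaged 647 ± 54.0 CPM in Lpcat3 livers and 622 ± 66.7 CPM in eGFP livers. Of the 101-base windows of the longest Acaa1b transcript 22.4% also occur in Acaa1a, so the split of reads between the pair is uncertain. Ehhadh and Hsd17b4, the L- and D-bifunctional proteins, averaged 463 ± 48.4 CPM and 466 ± 27.9 CPM in Lpcat3 livers, against 433 ± 34.4 CPM and 433 ± 35.9 CPM in eGFP livers. Scp2, whose products include a peroxisomal thiolase for branched chains and a sterol carrier, averaged 4158 ± 108 CPM in Lpcat3 livers and 4071 ± 256 CPM in eGFP livers, and 32.0% of its transcript windows also occur in the pseudogene Scp2-ps2.

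**Figure D3:**
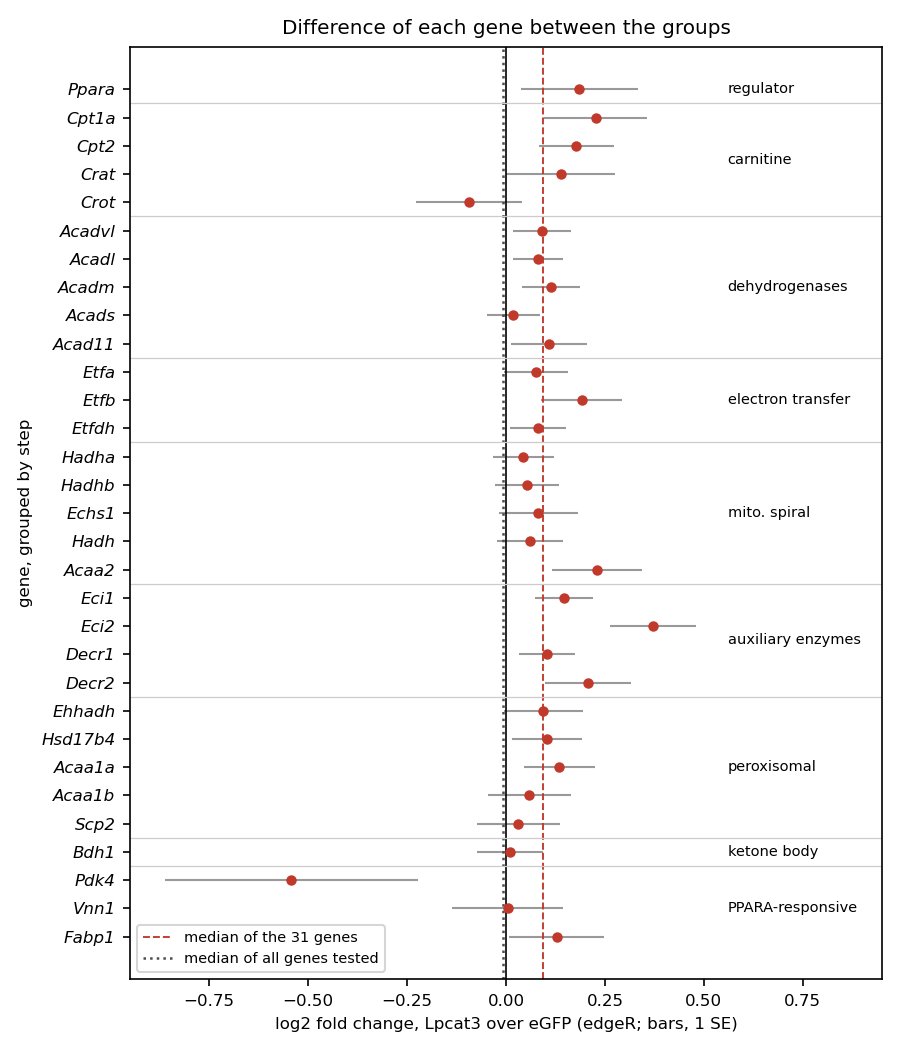
Log2 fold change of each gene, Lpcat3 over eGFP, from edgeR, with bars of 1 SE, grouped by step; the dashed line is the median of the 31 genes, 0.09, and the dotted line that of all genes tested. Points sit right of 0 for 29 genes (11 with library totals in place of TMM), Eci2 is farthest right at 0.37, and Pdk4 is farthest left at -0.54 with the widest bar.

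Bdh1, which interconverts acetoacetate and beta-hydroxybutyrate and is the only ketone body enzyme of the 31, was at 225, 214, 183 and 195 CPM in Lpcat3 livers, against 213, 190, 197 and 210 CPM in eGFP livers. The eGFP libraries lay within the Lpcat3 range (log2 fold change 0.01, SE 0.08, 95% interval -0.17 to 0.20; edgeR adjusted p = 0.973; exact permutation p = 0.914).

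Pdk4, the kinase that inhibits pyruvate dehydrogenase and so spares glucose when fat is burned, was at 19.8, 18.9, 11.2 and 25.3 CPM in Lpcat3 livers, against 24.9, 21.2, 45.6 and 18 CPM in eGFP livers. It had the widest spread of the 31, and its extremes were Lpcat3 replicate 3 and eGFP replicate 3, the libraries at the ends of the principal axis (log2 fold change -0.54, SE 0.32, 95% interval -1.26 to 0.18; edgeR adjusted p = 0.646; exact permutation p = 0.286). The log2 fold change was -0.18 without eGFP replicate 3 and -0.00024 without both libraries numbered 3. Vnn1, a pantetheinase and PPARA target, averaged 157 ± 31.5 CPM in Lpcat3 livers and 157 ± 10.1 CPM in eGFP livers, with its lowest value, 111 CPM, in Lpcat3 replicate 3. Without that library its log2 fold change was 0.14, against 0.0045 with all libraries. In eGFP replicate 3, where 23 of the 31 genes were lowest, Pdk4 was at its highest. Vnn1 was at 163 CPM there, close to 161 and 162 CPM in eGFP replicates 1 and 4. Crot was at 504 CPM there, close to 503 CPM in eGFP replicate 2.

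Fabp1, the liver fatty acid binding protein that carries fatty acids in the cytosol, averaged 2910 ± 204 CPM in Lpcat3 livers and 2662 ± 301 CPM in eGFP livers (log2 fold change 0.13, SE 0.12; edgeR adjusted p = 0.741). Its promoter is shown because it held a direct repeat close to the element that PPARA and its partner RXR are known to bind. It alone did so among the 26 genes whose RefSeq promoter window (250 bases before to 50 after the start) was searched. Crat, Decr1, Vnn1, Acaa2 and Hsd17b4 were not searched. Windows of the 31 genes on the chromosome of Acaa2 and Hsd17b4 were left out, while the background of all windows kept that chromosome. The motif searched was AGGTCANAGGTCA on both strands. The Fabp1 window, chr6:71199629-71199928 on the plus strand (RefSeq, GRCm38.p6), has the motif with 1 mismatch on the opposite strand, in capitals, 67 to 55 bases before the start.
Fabp1 promoter: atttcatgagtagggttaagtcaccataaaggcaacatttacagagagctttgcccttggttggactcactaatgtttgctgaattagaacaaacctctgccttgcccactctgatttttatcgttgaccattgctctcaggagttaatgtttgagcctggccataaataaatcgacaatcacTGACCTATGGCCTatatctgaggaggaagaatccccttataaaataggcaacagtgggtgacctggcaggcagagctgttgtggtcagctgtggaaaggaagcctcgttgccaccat
Echs1 and Etfa had it with 2 mismatches, on the strand of the gene for Echs1 and on the opposite strand for Etfa, each read here 5′ to 3′ on its own strand.
Echs1 stretch: AGGTCACGGGTCC
Etfa stretch: AGGGCAAAGGTAA
With at most 1 mismatch the motif was in 0.554% of all 32851 promoter windows, and with at most 2 in 3.86%, against 3 of the 26 genes. Echs1 (log2 fold change 0.08) and Etfa (0.08) were near the median of the 31 genes. A match is a description of these letters and not a bound site.

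Levels across genes were compared per kilobase of annotated exon (GENCODE M21). Fabp1 was the highest, at 5262 ± 369 CPM per kb in Lpcat3 livers and 4814 ± 545 CPM per kb in eGFP livers, then Scp2 at 1570 ± 40.7 CPM per kb in Lpcat3 livers and 1537 ± 96.6 CPM per kb in eGFP livers. Acaa1b followed at 383 ± 32.0 CPM per kb in Lpcat3 livers and 368 ± 39.5 CPM per kb in eGFP livers, then Acaa2 at 267 ± 24.8 CPM per kb in Lpcat3 livers and 227 ± 30.9 CPM per kb in eGFP livers. Hadh, Etfa and Ppara came next, at 216, 218 and 210 CPM per kb in Lpcat3 livers and 207, 207 and 185 CPM per kb in eGFP livers, each within 1 SD of the Ppara level in both groups. Cpt1a, at 183 ± 13.8 CPM per kb in Lpcat3 livers and 156 ± 27 CPM per kb in eGFP livers, was above its matrix partner Cpt2, at 56.3 ± 4.24 CPM per kb in Lpcat3 livers and 49.8 ± 5.67 CPM per kb in eGFP livers. Crat (17.8 CPM per kb in Lpcat3 livers and 16.2 in eGFP livers) and Pdk4 (5.39 in Lpcat3 livers and 7.86 in eGFP livers) were lowest in both groups.

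A single eGFP library stood apart in these genes. Of the 31 genes, 23 had their lowest value in eGFP replicate 3, and only 3 were above their own 8-library median there. How many of all genes were lowest there was not counted, and this library also lay at an end of the principal axis of all genes. In eGFP replicate 4, 20 were above it, as many as in Lpcat3 replicate 4, and the counts were 10 and 6 in eGFP replicates 1 and 2. In Lpcat3 replicates 1, 2 and 3 the counts were 18, 28 and 19. The median level of the 31 genes relative to the 8-library mean was 0.03, 0.08, 0.04 and 0.06 (log2) in Lpcat3 replicates 1 to 4, and -0.03, -0.08, -0.20 and 0.06 in eGFP replicates 1 to 4. The coefficient of variation was smaller among Lpcat3 livers for 25 of the 31 genes, with medians of 6.54% in Lpcat3 livers and 8.75% in eGFP livers. Without eGFP replicate 3 that count was 19 and the eGFP median 7.19%. The same counts were not made over all genes, so the smaller variation cannot be called particular to these genes. Leaving out eGFP replicate 3 lowered the median log2 fold change of the 31 to 0.06 with 26 above 0, and leaving out both libraries numbered 3 lowered it to 0.05, again with 26 above 0.

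The hepatocyte markers were also lowest, and the macrophage markers highest, in eGFP replicate 3, but neither list followed the oxidation genes in every library. The median of the 14 hepatocyte markers relative to the 8-library mean was 0.02, -0.03, 0.46 and 0.02 (log2) in Lpcat3 replicates 1 to 4, and -0.29, 0.09, -0.47 and 0.16 in eGFP replicates 1 to 4. That of the 14 macrophage markers was -0.0032, -0.35, -0.74 and -0.29 in Lpcat3 livers, and 0.65, 0.10, 0.72 and -0.09 in eGFP livers. The hepatocyte list had 12 of 14 log2 fold changes above 0 with a median of 0.17, larger than that of the oxidation genes. The macrophage list had 13 of 14 below 0 with a median of -0.57, and its summed level was 355 to 498 CPM in Lpcat3 livers and 478 to 759 CPM in eGFP livers. The endothelial list had 8 of 8 below 0 (median -0.21; 346 to 438 CPM in Lpcat3 livers and 434 to 476 CPM in eGFP livers), and the stellate and fibroblast list 8 of 10 (median -0.24; 305 to 557 CPM in Lpcat3 livers and 470 to 577 CPM in eGFP livers). The lymphocyte and neutrophil markers were below 0 in 7 of 7 and 3 of 3 tested genes, with summed levels of at most 5.38 and 7.79 CPM in Lpcat3 livers and 8.64 and 19.3 CPM in eGFP livers, and the cholangiocyte markers were above 0 in 5 of 6 (39.6 to 128 CPM in Lpcat3 livers and 38.2 to 86.5 CPM in eGFP livers). Adgre1, the macrophage antigen F4/80, averaged 28.5 ± 5.96 CPM in Lpcat3 livers and 55.4 ± 21.8 CPM in eGFP livers, and Cdh5, the endothelial cadherin, 48.6 ± 5.91 CPM in Lpcat3 livers and 64 ± 3.95 CPM in eGFP livers. G6pc, a hepatocyte enzyme of glucose output, averaged 383 ± 151 CPM in Lpcat3 livers and 194 ± 66.5 CPM in eGFP livers. Spp1 is counted in both the macrophage and the cholangiocyte list. No gene of these lists passed the test, and their part in the levels of the oxidation genes was not tested.

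**Figure D4:**
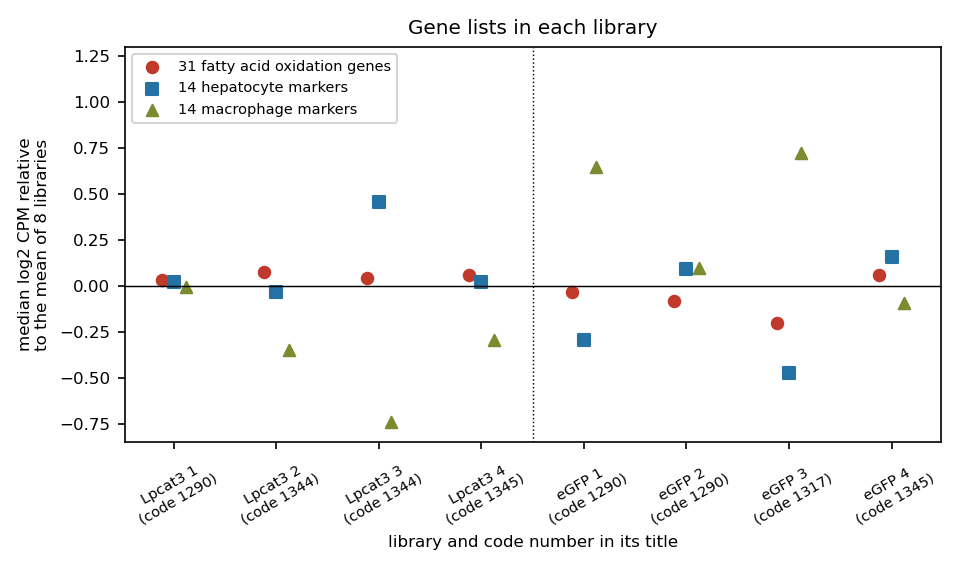
Median level of the 31 fatty acid oxidation genes, the 14 hepatocyte markers and the 14 macrophage markers in each library, as log2 CPM relative to the mean of 8 libraries, with Lpcat3 libraries left of the dotted line. In eGFP replicate 3 the oxidation genes (-0.20) and hepatocyte markers (-0.47) are lowest and the macrophage markers (0.72) highest.

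Within the code numbers the direction held in one division and not in the other. Among libraries of codes 1290 and 1317 (1 Lpcat3 and 3 eGFP libraries) the Lpcat3 level was above the eGFP mean for 30 of 31 genes, with a median log2 difference of 0.13. Among those of codes 1344 and 1345 (3 Lpcat3 and 1 eGFP libraries) it was above for 14 of 31, with a median of -0.0039. Over all genes the counts were 8451 and 8410 of 17438. Within code 1290 alone, which leaves out eGFP replicate 3, 27 of 31 were above 0 (median 0.07), and within code 1345 alone, with 1 library of each group, 13 of 31 (median -0.03). The 14 genes above 0 in codes 1344 and 1345 were above 0 in both divisions, and included Eci2, Crat, Cpt2 and Eci1. Over all genes 4304 of 17438 were above 0 in both. The difference between the divisions was not tested, and each rests on a single library of one of the groups. Code 1317 has no Lpcat3 library and code 1344 no eGFP library, so the divisions still mix code and group.

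**Figure D5:**
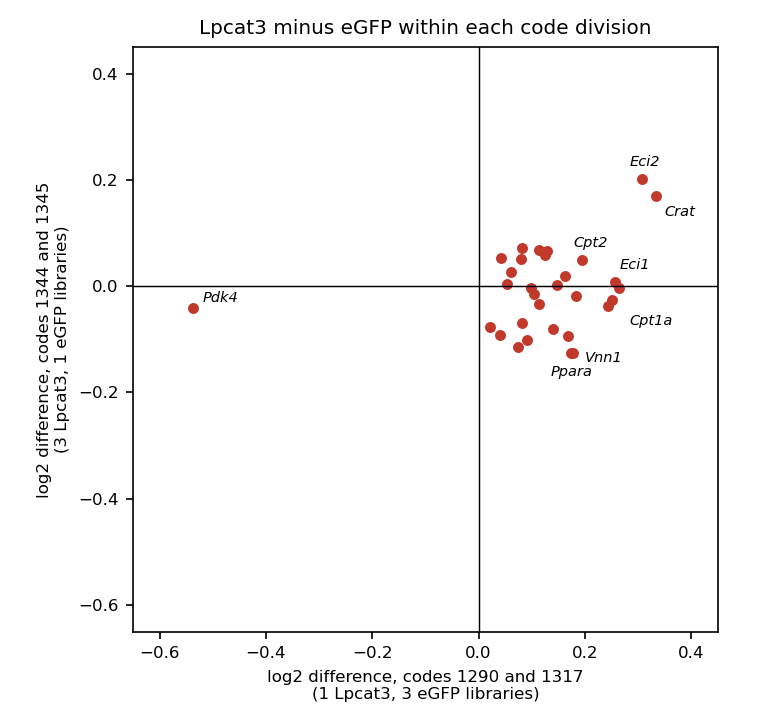
Log2 difference, Lpcat3 minus eGFP, of each of the 31 genes within codes 1290 and 1317 (horizontal) and within codes 1344 and 1345 (vertical). Nearly all points lie right of 0, but they spread to both sides of 0 vertically, with Eci2 and Crat highest in both and Pdk4 alone on the left.

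Of 40 further genes of oxidation and ketone metabolism, 32 had log2 fold changes above 0 (median 0.08, range -0.42 to 0.65) and 0 passed, with 4 at an unadjusted p under 0.05, all higher in Lpcat3 livers. The shift of -0.12 that library totals give the median gene is larger than this median. Slc25a20, the carrier that brings acylcarnitine into the matrix between Cpt1a and Cpt2, was at 77.7, 81.3, 79.9 and 81.2 CPM in Lpcat3 livers, against 71.6, 66.0, 64.3 and 73.1 CPM in eGFP livers, without overlap (log2 fold change 0.22, SE 0.06; edgeR adjusted p = 0.564). Hacl1, the lyase of alpha-oxidation, was at 117, 100.5, 197 and 118 CPM in Lpcat3 livers, against 88.5, 97.3, 56.9 and 104 CPM in eGFP livers (log2 fold change 0.62, SE 0.24). Nudt7, a peroxisomal hydrolase of coenzyme A, was at 187, 397, 391 and 291 CPM in Lpcat3 livers, against 194, 165, 155 and 292 CPM in eGFP livers (log2 fold change 0.65, SE 0.27), so its groups overlapped. Echdc2, of the enoyl-CoA hydratase family, averaged 83.6 ± 4.93 CPM in Lpcat3 livers and 72.1 ± 6.56 CPM in eGFP livers. Within codes 1344 and 1345, 12 of the 40 were above 0, against 35 of 40 within 1290 and 1317.

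Of 29 tested genes that respond to PPARA outside oxidation, 24 had log2 fold changes above 0 (median 0.20, range -0.95 to 1.08), 0 passed and 5 had an unadjusted p under 0.05, all higher in Lpcat3 livers. Angptl4, a secreted inhibitor of lipoprotein lipase, averaged 87.6 ± 19.9 CPM in Lpcat3 livers and 66.6 ± 6.03 CPM in eGFP livers. Acot1, an acyl-CoA thioesterase, averaged 36.5 ± 10.7 CPM in Lpcat3 livers and 22.4 ± 8.37 CPM in eGFP livers. Fitm2, a lipid droplet protein, averaged 44.2 ± 4.58 CPM in Lpcat3 livers and 35.7 ± 6.45 CPM in eGFP livers. Creb3l3, a hepatic transcription factor of fasting, averaged 213 ± 9.66 CPM in Lpcat3 livers and 187 ± 16.1 CPM in eGFP livers. The edgeR adjusted p-values of these 4 were 0.569 to 0.579. Of the 5 genes below 0, 2 are named after their values were seen, since like Pdk4 they were highest in eGFP replicate 3 and lowest in Lpcat3 replicate 3. Fgf21, a hepatic hormone of fasting, was at 9.21, 6.98, 2.06 and 6.29 CPM in Lpcat3 livers, against 10.5, 9.11, 22.5 and 5.49 CPM in eGFP livers (log2 fold change -0.95, SE 0.49; edgeR adjusted p = 0.62). Plin2, a lipid droplet coat protein, was at 740, 668, 449 and 741 CPM in Lpcat3 livers, against 805, 582, 1176 and 607 CPM in eGFP livers (log2 fold change -0.29, SE 0.25). Of 22 regulators, 15 had log2 fold changes above 0 (median 0.06, also smaller than that shift, range -0.13 to 0.91) and 0 passed. Lpin1, a phosphatidate phosphatase that is also a coactivator of PPARA, was at 220, 206, 176 and 124 CPM in Lpcat3 livers, against 91.0, 117, 60.7 and 119 CPM in eGFP livers, without overlap (log2 fold change 0.91, SE 0.24; edgeR adjusted p = 0.564). Rxrb, a heterodimer partner, averaged 17.0 ± 1.15 CPM in Lpcat3 livers and 14.9 ± 0.591 CPM in eGFP livers.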

How the data were processed

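Frozen liver RNA (TRIzol) was depleted of ribosomal RNA and made into stranded libraries, read from a single end, per the labels' protocols. The authors deposited raw counts of reads per NCBI gene number, with bcl2fastq 2.20, DESeq2 (no version) and build GRCm39 named in the submitters' processing notes. The sources used here do not give the aligner, counter or strand setting, so overlapping genes may share reads. Columns were joined to samples by the code in each title, and symbols came from RefSeq (GRCm38.p6; 39397 of 40838 rows, 99.5% of counts).

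Genes were filtered with filterByExpr (minimum count 10), scaled by TMM and compared with edgeR 4.0.16 (R 4.3.3; robust quasi-likelihood test, group as the only term, two-sided, Benjamini-Hochberg over 17438 genes, called at 0.05). SEs are the log2 fold change over the square root of F, and 95% intervals use the fit's degrees of freedom. Single genes also had a two-sided exact permutation test on log2 CPM (prior count 2; 70 relabellings). DESeq2 1.42.0 and limma 3.58.1 (voom) served as alternatives, beside other scalings and filters, left-out libraries, the replicate block and code numbers. On simulated data (3 simulations) the fit called 0 of 150 genes changed 1.2-fold. It called 25.3% of 150 changed 1.5-fold, 68% at 2-fold and 90.7% at 4-fold. Exon lengths and transcript windows of 101 bases came from GENCODE M21.

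The 31 genes, the other lists (oxidation, PPARA-responsive, regulators and cell type markers) and the tests were chosen with earlier results of these data known. Given in full were Ppara, Cpt1a, Bdh1, genes with an unadjusted p under 0.05 or without overlap, and in each step the largest absolute log2 fold change. From the other pathway lists up to 4 genes by p were named, of those under 0.05 with at least 1 CPM; of the marker lists, 3 that meet this rule were picked after their values were seen.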

Additional observations from a re-analysis of the deposited data

Results flagged for a closer look

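A single library stood far from the other 3 of its group for 5 of the 62 gene and group combinations of the 31 genes, where chance flags about 1 in 20. Cpt2 was at 148.5 CPM in Lpcat3 replicate 3, against 130.0 CPM in the next library of its group. Hadhb was at 228 CPM in Lpcat3 replicate 3, with the next at 256 CPM. Crot was at 389 CPM in eGFP replicate 4, with the next at 496 CPM. Etfdh was at 199.8 CPM in eGFP replicate 3, with the next at 218 CPM. Vnn1 was at 142 CPM in eGFP replicate 2, with the next at 161 CPM.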

How the results depend on the processing

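Each of the 19 alternatives (edgeR, DESeq2 or limma-voom) called 0 of the 31 genes. The smallest adjusted p among them was 0.19 (Eci2, DESeq2). With library totals the count above 0 was 11 and the median -0.024. The count was 23 to 29, and the median 0.04 to 0.13, under all other alternatives. The code division in the fit gave 26 (median 0.05), and adjustment for every code number 23 (0.04). Over all genes, where the full data gave 1 higher and 0 lower, DESeq2 called 28 higher and 26 lower, library totals 3 higher, the fit without robust estimation 2, and no filter, the replicate block, both code terms and leaving out both libraries numbered 3 called 0. Leaving out single libraries gave 0 to 7 higher, with 7 without Lpcat3 replicate 1. The largest number of the 31 genes at an unadjusted p under 0.05 was 9, without eGFP replicate 4, against 1 in the full data. The smallest edgeR adjusted p of the 31 in that fit was 0.28. The share of all genes under 0.05 in that fit was not counted, so the 9 cannot be set against a background.

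Adjustment for every code number turned the sign of 10 of the 31 genes, and library totals, which moved the median gene by -0.12, that of 18. Among the 10 genes given in full these were Ppara (-0.043) and Pdk4 (0.093) under the code numbers, and Acadm (-0.0011) and Bdh1 (-0.10) under library totals. Bdh1, at 0.01 with all libraries, ran from -0.039 to 0.059 when single libraries were left out and was below 0 without Lpcat3 replicate 1, Lpcat3 replicate 2 (-0.013), eGFP replicate 2 (-0.017) or eGFP replicate 3 (-0.0049). The causes were not tested. The labels do not say whether replicate numbers pair the samples. Deviations of same-numbered libraries correlated at 0.28, -0.07, -0.40 and -0.12, and only number 1 matched its own number best. Both libraries numbered 1 carry code 1290 and both numbered 4 carry code 1345. So few correlations cannot decide on pairing. With the replicate block 1 of the 31 signs changed and the median was 0.09. Each of the 31 genes had at least 233 counts in every library.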

Other observations

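The ratio of the paralogous peroxisomal thiolases Acaa1b and Acaa1a separated the groups although neither gene did. Acaa1b over Acaa1a CPM was 2.27, 2.28, 2.15 and 2.27 in Lpcat3 livers, against 2.37, 2.40, 2.30 and 2.37 in eGFP livers. The log2 difference was -0.08 (exact permutation p = 0.0286, the smallest possible; 0.0571 adjusted over the 2 ratios computed), so it did not pass after adjustment. The sum of both genes was 881, 985, 867 and 1011 CPM in Lpcat3 livers, against 869, 901, 773 and 996 CPM in eGFP livers, and overlapped. The part of shared reads in this ratio was not tested.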
